A study of Mus musculus with 2 samples.

Results

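Among mouse kidney cells sorted for stromal receptors, 206 cells of the library labelled sham were set apart by 7 transcripts of secreted proteins, Ptx3, C3, Sfrp4, Sfrp2, Chil1, Igfbp6 and Ccl7. They were the 2.5% of kept cells with the highest score, which is the mean over the 7 genes of the natural log of 1 plus the unique molecular identifiers (UMIs, tags that mark single captured transcripts) per 10000. There were 8215 kept cells of 10812 barcodes in that library, so 8009 other kept cells served as the comparison. A kept cell had at least 2000 UMIs, at most 10% of them mitochondrial, at least 3 of Col1a1, Col1a2, Col3a1, Dcn, Pdgfra and Pdgfrb detected and at most 1 of Pecam1, Ptprc, Epcam, Tyrobp and Umod detected. The study profiled FVBN kidney cells positive for both PDGF receptors, alpha and beta, by droplet-based 3′ sequencing, in 1 library 10 days after unilateral ureteral obstruction (UUO, a surgical model of kidney fibrosis) and 1 library from a sham operation. Each group is a single library, so no difference has a replicate check and none was tested, since cells of 1 library are not replicates, and all intervals are 95% intervals for counting error only. Age, sex and the number of animals behind each library are not given in the labels. Some injury transcripts, such as Timp1 below, were higher in the library labelled sham, so both libraries are named as labelled.

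Fibroblasts of many organs include a type that lies in the loose connective tissue around vessels, often marked by Pi16, Dpp4 or Clec3b, and that can secrete chemokines, complement and acute phase proteins. Ptx3 is a soluble pattern recognition molecule that also builds hyaluronan matrix, C3 is the central component of complement, and Ccl7 attracts monocytes. Sfrp4 and Sfrp2 are secreted modulators of WNT signalling, Igfbp6 binds insulin-like growth factors with a preference for IGF2, and Chil1 is a chitinase-like lectin that binds chitin without cleaving it.

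The score chose the cells, so the levels of the 7 genes in them describe the choice. The score had a median of 0.951 in members, with a maximum of 2.80, and a median of 0.0441 in other kept cells. The cutoff fell in a continuous range, with 0.529, 0.532 and 0.533 just inside and 0.528, 0.526 and 0.523 just outside, and 26 members and 39 other cells lay within 10% of it. Depth was close, with medians of 9301.5 UMIs and 2980 genes per member and 8720 UMIs and 3080 genes per other kept cell. Members had a median of 4 of the 7 genes detected and other kept cells a median of 1. At least 3 of the 7 were detected in 76.7% of members and 1.66% of other kept cells, and all 7 in 5 members.

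**Figure D1:**
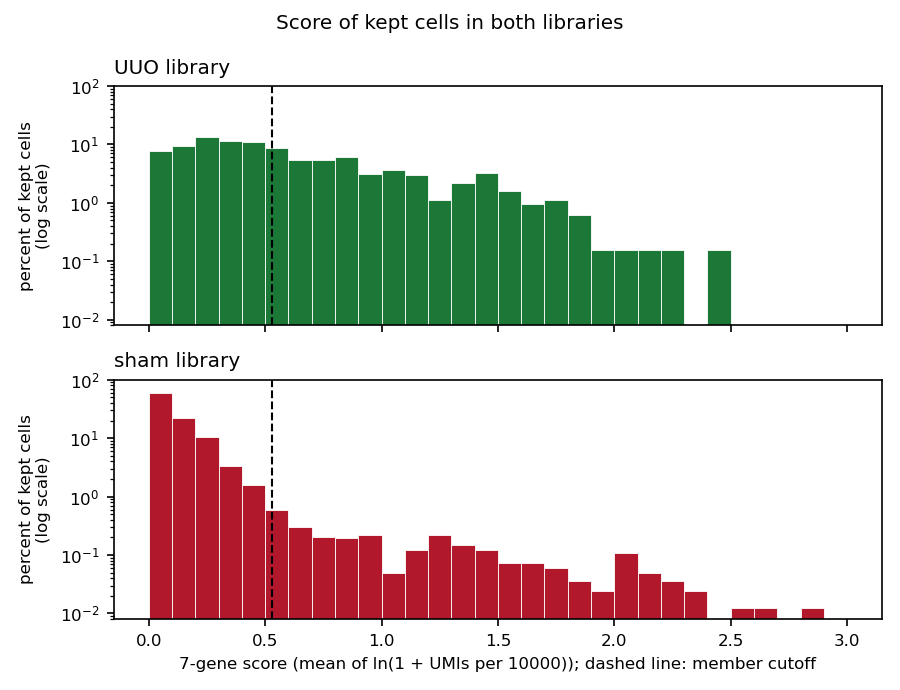
Share of kept cells (percent, log scale) in bins of the 7-gene score, for the library labelled UUO above and the library labelled sham below. The dashed line is the score of the lowest member; 2.51% of the kept cells labelled sham lie at or past it, a share set by the rule.

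Each of the 7 genes was in far more members than other kept cells. C3 had a UMI in 72.3% of members (95% exact Clopper-Pearson interval 65.7 to 78.3) and 7.80% of other kept cells (7.23 to 8.41). Igfbp6 was in 74.3% of members and 32.0% of other kept cells, Sfrp4 in 67.0% and 5.67%, and Ccl7 in 61.2% and 12.0%. Sfrp2 was in 40.3% of members and 2.53% of other kept cells, Ptx3 in 35.4% and 1.70%, and Chil1 in 22.8% and 2.88%. No single gene was therefore present in every member, and the rarest, Chil1, was found in 47 cells. Free RNA in droplets also gives UMIs, and the background is shown by 88 barcodes labelled sham with at least 4 of 7 endothelial markers and a median of 3741 UMIs. In those barcodes the share with a UMI was 6.82% for Igfbp6 and Ccl7, 4.55% for Ptx3 and C3, 1.14% for Sfrp4 and Chil1, and 0 for Sfrp2, which allows up to 4.11% by the exact interval. The shares in other kept cells lie within the intervals of this background for all of the 7 but Igfbp6, but the intervals are wide, the other kept cells are deeper, and single ones held up to 24 UMIs of C3, 27 of Sfrp4, 25 of Ccl7 and 18 of Sfrp2. Background and expression in other kept cells cannot be told apart from these shares. With every cell thinned to 2000 UMIs, Ptx3 remained in 23.3% of members and 0.387% of other kept cells, and C3 in 51.9% and 2.25%.

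**Figure D2:**
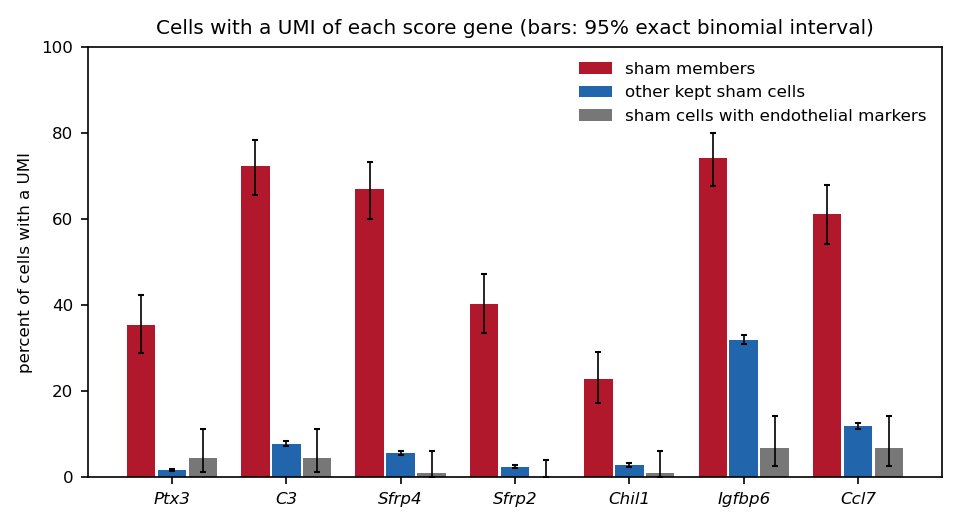
Percent of cells with at least 1 UMI of each score gene in sham members, other kept sham cells and sham barcodes with endothelial markers. Error bars are 95% exact binomial intervals; Igfbp6 is the gene most often found in other kept cells, at 32.0%.

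Among cells that had the gene, levels spread widely. Ptx3 ran from 0.343 to 67.1 UMIs per 10000 in the 73 members that had it, with a median of 7.64, and had a median of 0.918 in the 136 other kept cells that had it. Sfrp4 ran from 0.583 to 209 in its 138 members, with a median of 7.99, against a median of 1.09 in the other kept cells that had it. Ccl7 had a median of 10.9 UMIs per 10000 among its detecting members and reached 127, with a median of 1.13 in other kept cells. Chil1 was uneven, with a median of 1.67 in its 47 members and a highest value of 85.2. The typical Chil1-detecting member therefore held little of it, and 1 cell held 20.6% of all Chil1 counts in members.

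Each of the 7 genes was also left out in turn, cells were chosen by the other 6, and the left-out gene was measured, here in CPM (the gene's summed counts scaled to the same total in every set). Ptx3 stood at 380 CPM in cells chosen without it and 2.83 CPM in the rest, a ratio of 134 (115 to 158). Chil1 was 47.4-fold higher (41.0 to 54.9), Sfrp4 41.9-fold (38.9 to 45.1), C3 36.2-fold (33.6 to 39.1) and Sfrp2 35.9-fold (31.9 to 40.4). Ccl7 was 22.0-fold higher (20.6 to 23.5) and Igfbp6 9.70-fold (9.14 to 10.3). The median log2 ratio, with 5 CPM added to both sides as in all log2 ratios here, was 4.53. The measured gene was not used to choose the cells, but the 7 genes were picked as a set with results of this library known, so the ratios describe that set and support nothing beyond it. Between 168 cells, for Ccl7, and 200 cells, for Chil1, of the 206 chosen this way were also members by all 7.

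The genes lie on 6 chromosomes of the mm10 build. By GENCODE M21, which is annotated on the same assembly, Ptx3 is at chr3:66219910-66225805 (plus strand), Sfrp2 at chr3:83766321-83774316 (plus) and C3 at chr17:57203970-57228136 (minus). Chil1 is at chr1:134182176-134190181, Ccl7 at chr11:82045712-82047525, Sfrp4 at chr13:19623104-19632994 and Igfbp6 at chr15:102144362-102149511, all on the plus strand. RefSeq promoter windows (GRCm38.p6, 250 bases before to 50 after a start) were available for 5 of the 7. The consensus of NF-kB, a transcription factor that drives many inflammatory genes, was searched on both strands. It was in the windows of Ptx3, Chil1 and Sfrp2 and in 8.46% of all 32851 windows. The windows of genes at least 2-fold higher in members held it in 13.2% of 325, those at least 2-fold lower in 10% of 230, and those of all genes tested in 10.4% of 8751. AP-1 (TGANTCA), a factor of the Fos and Jun families, was in 10.8%, 6.96% and 5.19% of these same windows and in none of the 5 markers'. C/EBP (TTGCNNCAA) was in 1.54%, 1.30% and 1.45%, and also in none of the 5. Over all 32851 windows AP-1 was in 7.81% and C/EBP in 2.08%. A match is a description of the letters and not evidence of binding. The Ptx3 and Chil1 windows are shown because each gene splits the main cluster in a later description, and that of Cxcl1 as a chemokine far higher in members. Each holds 200 bases before the RefSeq start and 20 after it, on the plus strand, with the NF-kB matches in capitals. They span chr3:66219687-66219906 for Ptx3, chr1:134181956-134182175 for Chil1 and chr5:90891045-90891264 for Cxcl1. The matches of Ptx3 and of Cxcl1 are each 2 that overlap, and the Cxcl1 window also holds a C/EBP match, not capitalised.
Ptx3: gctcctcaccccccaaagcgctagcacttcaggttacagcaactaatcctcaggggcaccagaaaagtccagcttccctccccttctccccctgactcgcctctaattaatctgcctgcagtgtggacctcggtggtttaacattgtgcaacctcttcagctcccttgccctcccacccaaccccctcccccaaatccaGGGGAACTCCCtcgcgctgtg
Chil1: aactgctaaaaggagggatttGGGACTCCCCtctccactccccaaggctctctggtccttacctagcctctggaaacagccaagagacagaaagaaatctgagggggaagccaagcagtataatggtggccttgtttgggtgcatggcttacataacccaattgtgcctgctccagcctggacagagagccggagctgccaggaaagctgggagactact
Cxcl1: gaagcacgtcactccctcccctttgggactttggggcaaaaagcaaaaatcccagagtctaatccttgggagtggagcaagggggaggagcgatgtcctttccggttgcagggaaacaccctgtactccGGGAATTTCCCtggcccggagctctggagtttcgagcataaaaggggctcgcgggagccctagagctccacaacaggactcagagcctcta

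The members were not 1 kind of cell. When kept sham cells were clustered by the Leiden method on variable genes without the 7 score genes, 146 of the 206 members (70.9%) fell into 1 cluster of 198 cells, here called the main cluster. The genes of the rule's filters were not left out of the clustering. That cluster was 2.41% of kept cells, and members made up 73.7% of it. The other 60 members were spread over 12 of the 14 remaining clusters, with at most 9 in each, and made up between 0.25% and 11.3% of those. The median member had 80% members among its 20 nearest neighbours and the median other kept cell 0. The score had a median of 1.24 in main-cluster members and 0.621 in members elsewhere. Main-cluster members carried C3 in 84.9% of cells, Sfrp4 in 78.8% and Ptx3 in 43.8%, while members elsewhere carried them in 41.7%, 38.3% and 15%. Ccl7 ran the other way, in 55.5% of main-cluster members and 75% of members elsewhere. Chil1 was in 22.6% and 23.3%, but at 301 CPM in main-cluster members and 41.8 CPM in members elsewhere. The split was made on the genes of the cells clustered, so values by cluster are descriptions.

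**Figure D3:**
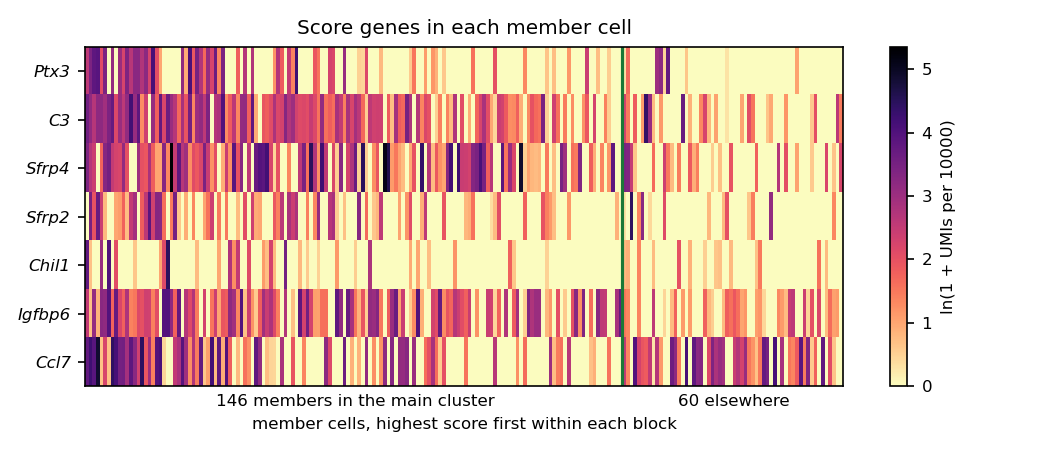
Natural log of 1 plus UMIs per 10000 of the 7 score genes (rows) in each of the 206 members (columns), with the 146 members of the main cluster left of the green line and the 60 elsewhere right of it. Cells run from the highest score down within each block; Ptx3 is found in 43.8% of the left block and 15% of the right, and Ccl7 in 55.5% and 75%.

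Among 8893 genes at 10 CPM or more in either set, 370 (4.16%) were higher in members by 2-fold or more and 241 (2.71%) lower by as much, with a median log2 ratio of -0.15. The rule used this contrast, so the counts describe the chosen cells. Of the 370, 303 were still 2-fold higher and of the 241 all were still 2-fold lower without the member cell that held most of their UMIs. With main-cluster members in place of all members, 441 genes were higher and 526 lower, and 332 of the 370 and 240 of the 241 were among them. With the 60 members elsewhere, 355 were higher and 158 lower, and only 136 of the 370 and 56 of the 241 were among them.

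All 206 members met the fibroblast filter, which took Col1a1 and its companions at any level. Col3a1 was detected in every member and 99.5% of other kept cells, and Dcn, which encodes the collagen-binding proteoglycan decorin, stood at 7937 CPM in members and 2460 CPM in other kept cells, 3.23-fold higher (3.17 to 3.28). The sorted receptor Pdgfra was in 75.7% of members and 76.1% of other kept cells, at 201 and 234 CPM. Pdgfrb was lower in members, at 120 CPM against 295 CPM, 2.47-fold lower (2.18 to 2.81), and was in 56.3% of members and 82.3% of other kept cells. Mesothelial cells, which can share some of these transcripts, were checked by 14 markers, which summed to 183 CPM in members and 139 CPM in other kept cells. Msln and Lrrn4, which define that cell type, had 0 counts and Upk3b 1 count in members, while of the 5 markers tested Rspo1 was 14.8-fold higher (11.2 to 19.4) and none at least 2-fold lower, with a median log2 ratio of 0.69. Wt1, a transcription factor of mesothelium and podocytes, stood at 83.1 CPM in members and 43.6 CPM in other kept cells. In main-cluster members (defined above), 2 of 4 tested mesothelial markers were at least 2-fold higher, Wt1 and Rspo1, and 2 lower, Gpm6a and Cldn15. The median log2 ratio there was -0.07. Among all genes tested, 4.97% were higher and 5.92% lower in main-cluster members. The part of such cells in the results was not tested. Endothelial and erythroid markers were lower in summed counts. Of those tested, 3 of 5 and 3 of 3 were at least 2-fold lower in members, against 2.71% of all genes tested. The erythroid difference was not one of shares of cells. In thinned cells Hbb-bs was in 1.94% of members and 2.40% of other kept cells, Hba-a1 in 0.971% and 1.17%, and Hbb-bt in 1.94% and 0.499%. The log2 ratio of Hbb-bs was also above 0 among Xist cells (0.046) and among Y-linked cells (0.49).

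Markers of macrophages and dendritic cells followed the split. The whole list of 12 summed to 2872 CPM in members elsewhere, 144 CPM in main-cluster members and 437 CPM in other kept cells. With no filter on low values, 11 of the 12 stood above the level of other kept cells in members elsewhere and 2 of the 12 in main-cluster members. Among all genes tested, 3.92% were at least 2-fold higher in members elsewhere, and 4.97% were higher and 5.92% lower in main-cluster members. Cd74, the invariant chain of MHC class II, stood at 1696 CPM in members elsewhere, 56.0 CPM in main-cluster members and 205 CPM in other kept cells. C1qa stood at 296, 9.92 and 33.5 CPM in the same order, and was in 23.3% of members elsewhere and 9.59% of main-cluster members. Over all members both genes were higher than in other kept cells (log2 1.45 for Cd74 and 1.44 for C1qa), and both were lower (log2 -1.79 and -1.37) with main-cluster members alone. Immunoglobulin transcripts of plasma cells rested on single cells, with 99.9% of the Igkc and 100% of the Igha counts of members in 1 cell for each gene, and log2 ratios of -0.19 and -0.18 without that cell. Smooth muscle actin Acta2 stood at 2074 CPM in members elsewhere, 248 CPM in main-cluster members and 1500 CPM in other kept cells. The 12 cell cycle genes summed to 391 CPM in members elsewhere, 98.5 CPM in main-cluster members and 133 CPM in other kept cells. Among members elsewhere, 16.7% had one of the highest doublet scores, against 11.6% of main-cluster members and 9.90% of other kept cells. The part of doublets in these values was not tested.

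**Figure D4:**
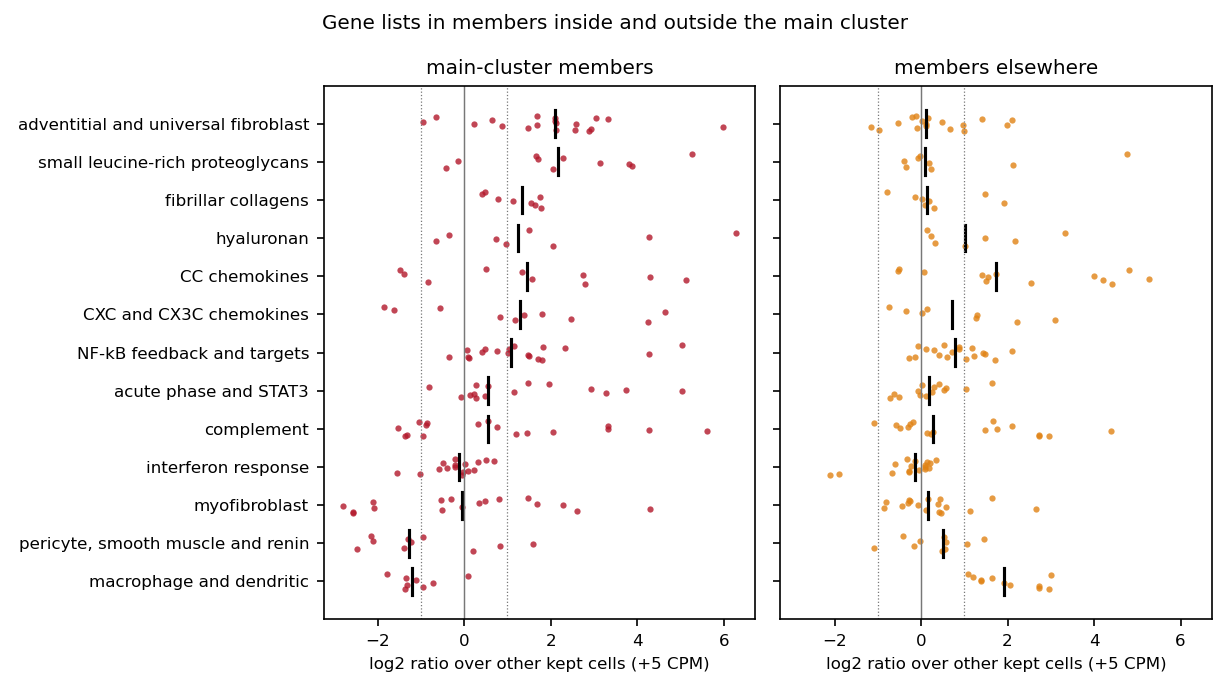
Log2 ratio over other kept sham cells (5 CPM added) of each gene of 13 lists, in main-cluster members (left) and in members elsewhere (right). Black bars are list medians and dotted lines mark 2-fold; the adventitial list has a median of 2.11 on the left and 0.12 on the right, and the macrophage list one of -1.22 and 1.91. The genes drawn passed 10 CPM in that panel's members or in other kept cells, so they are not the same set on both sides.

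Markers of connective tissue around vessels were among the genes far higher in members. Clec3b, which encodes the plasminogen-binding protein tetranectin, stood at 394 CPM in members and 4.07 CPM in other kept cells, 96.8-fold higher (84.5 to 111), and was in 54.4% and 2.67% of cells. Nearly all of it lay in the main cluster, at 571 CPM, against 7.74 CPM in members elsewhere. The long noncoding RNA Meg3 stood at 1112 CPM in members and 16.4 CPM in other kept cells, 67.7-fold higher (63.1 to 72.8), with 1577 CPM in main-cluster members and 97.5 CPM in members elsewhere. Over the 8215 kept cells of this library, these were also the genes whose log level went most closely with the score, with Pearson r of 0.59 for Clec3b and 0.54 for Meg3. They were followed by Scara5, a ferritin receptor (0.49), Bmper, a secreted BMP regulator (0.43), and Ifi205, an interferon-inducible gene (0.41). The cells share a library and differ in depth, so these values are descriptions. Scara5 was in 32.5% of members and 0.375% of other kept cells. Of 19 tested genes of the adventitial fibroblast list, 14 were at least 2-fold higher in members and 0 lower, with a median log2 ratio of 1.73. It was the same number in main-cluster members, with a median of 2.11. In members elsewhere it was 3 of 17 higher and 1 lower (background 1.75% lower). Among all genes tested, 4.16% were higher in members, 4.97% in main-cluster members and 3.92% in members elsewhere. The peptidase inhibitor Pi16 stood at 493 CPM in members and 82.2 CPM in other kept cells, 6.01-fold higher (5.61 to 6.42). Dpp4, a surface peptidase used to mark such fibroblasts, was 43.4-fold higher (26.4 to 72.0) but low, at 19.0 CPM, and in 19 members. Cd34 and Ly6a, surface proteins of progenitor-like stromal cells, were 2.35-fold and 5.85-fold higher. At the low end of the adventitial list, Adamtsl5, a secreted protein of the elastic fibre, stood at 28.2 CPM in members and 41.9 CPM in other kept cells. The list of cortical and quiescent kidney fibroblasts, which holds Meg3 and Scara5, was raised to a like degree. It had 11 of 17 tested genes higher and 3 lower in members, with a median log2 ratio of 1.69. In main-cluster members it was 12 of 17 higher and 3 lower, with a median of 2.06. The counts of these lists therefore do not set 1 kind of fibroblast above the other.

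Of 18 tested genes of NF-kB feedback and targets, 10 were at least 2-fold higher in members and 0 lower, with a median log2 ratio of 1.19, and 11 of 18 in main-cluster members. Among all genes tested, 4.16% were higher in members and 2.71% lower, and 4.97% were higher in main-cluster members. Saa3, an acute phase apolipoprotein, stood at 271 CPM in members and 7.09 CPM in other kept cells, 38.2-fold higher (33.8 to 43.1), yet it was in only 18.4% of members. Tnfaip6, which transfers heavy chains onto hyaluronan and binds Ptx3, stood at 266 CPM in members and 14.1 CPM in other kept cells, 18.8-fold higher (16.9 to 20.9). Nfkbia, the NF-kB inhibitor that NF-kB itself induces, was broader, in 83.5% of members and 59.0% of other kept cells, at 738 and 213 CPM. Its level was close in both kinds of member, at 754 CPM in main-cluster members and 706 CPM in members elsewhere. Ptgs2, the inducible cyclooxygenase, was 5.26-fold higher (4.41 to 6.23). The acute phase and STAT3 list had 6 of 15 higher and 0 lower, with a median log2 ratio of 0.47. Steap4, a metalloreductase, was 24.2-fold higher (19.5 to 29.9), and Hp, which encodes haptoglobin, 8.04-fold (7.26 to 8.89). Timp1, an inhibitor of matrix proteases, stood at 1884 CPM in members and 652 CPM in other kept cells. Of 16 tested interferon response genes, 0 were higher and 2 lower, Ifit3 and Ifitm1, at log2 ratios of -1.24 and -1.21. A count of 0 of 16 higher is near the share of all genes, 4.16%. The list's median log2 ratio was -0.15, the same as that of all genes tested.

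Several chemokines, but not all, were higher in both kinds of member. Of 13 tested CC chemokines, 8 were at least 2-fold higher in members and 0 lower, and without Ccl7, whose level helped choose the cells, it was 7 of 12. Also without Ccl7, main-cluster members had 5 of 9 higher and 2 lower, Ccl17 and Ccl21a. Members elsewhere had 9 of 12 higher and 0 lower. Among all genes tested, 4.97% were higher and 5.92% lower in main-cluster members, and 3.92% were higher in members elsewhere. Ccl2, Ccl8, Ccl9 and Ccl11 were at least 2-fold higher both in main-cluster members and in members elsewhere, as were Cxcl1, Cxcl2, Cxcl5 and Cxcl10. Of the 8 CC chemokines higher in members, Ccl5, Ccl21a and Ccl3 leaned on single cells, which held 93.8%, 62.5% and 44.4% of their counts. Without that cell the log2 ratios were -0.43, 1.80 and 0.57. The monocyte attractant Ccl2 stood at 843 CPM in members and 69.3 CPM in other kept cells, 12.1-fold higher (11.5 to 12.8), with 1575 CPM in members elsewhere and 507 CPM in main-cluster members. Ccl9 was 36.2-fold higher in members (31.2 to 42.1) and was in 15.0% of them. Ccl11, which attracts eosinophils, was 6.01-fold higher (5.44 to 6.63), with 287 CPM in main-cluster members and 110 CPM in members elsewhere. Of 10 CXC and CX3C chemokines, 6 were higher and 2 lower, in members and also in main-cluster members. In members elsewhere it was 4 of 8 higher and 0 lower. Cxcl1, a neutrophil attractant, stood at 1075 CPM in members and 68.9 CPM in other kept cells, 15.6-fold higher (14.8 to 16.4), but it was also in 12.5% of the endothelial barcodes and 26.8% of barcodes with macrophage markers. Cxcl13, which guides B cells, was 81.1-fold higher (63.5 to 104), with 44.8% of its counts in 1 of 17 cells. Cxcl14 and the membrane-bound Cx3cl1 were lower in members, at 628 and 101 CPM, against 1342 and 274 CPM in other kept cells. Among cytokines, Csf1 and Il33 were 2.45-fold and 2.05-fold higher, and Il6 stood at 238 CPM in members and 124 CPM in other kept cells, just under 2-fold. Ccl7 itself had a UMI in 61.2% of members and in 46.4% of 56 barcodes with macrophage markers, which had a median of 5448.5 UMIs.

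Several complement genes beside C3 were also higher in members. Of 16 tested without C3, 9 were at least 2-fold higher and 1 lower in members. In main-cluster members 6 of 16 were higher and 4 lower, so the list moved both ways there. Among all genes tested, 4.16% were higher and 2.71% lower in members, and 4.97% higher and 5.92% lower in main-cluster members. C4b, a component of the classical and lectin pathways, stood at 135 CPM in members and 5.34 CPM in other kept cells, 25.3-fold higher (21.6 to 29.6). Cfb, the protease of the alternative pathway, was 10.1-fold higher (8.93 to 11.5) and C2 3.40-fold (3.08 to 3.75). The surface regulator Cd55 was 20.3-fold higher (16.1 to 25.4). The 3 C1q genes among the 9 followed the macrophage markers described above, and C1qa and C1qc were lower in main-cluster members.

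Matrix genes divided. Of 10 small leucine-rich proteoglycans, which bind and space collagen fibrils, 8 were at least 2-fold higher in members and 0 lower, with a median log2 ratio of 1.77. It was 8 of 10 in main-cluster members but 2 of 8 in members elsewhere. The whole list summed to 16638 CPM in main-cluster members, 7312 CPM in members elsewhere and 7289 CPM in other kept cells. Among all genes tested, 4.16% were higher and 2.71% lower in members, and 3.92% were higher in members elsewhere. In main-cluster members 4.97% were higher and 5.92% lower. Lum stood at 1441 CPM in members and 121 CPM in other kept cells, 11.9-fold higher (11.4 to 12.4). Epyc, better known from cartilage, was 247-fold higher (187 to 332) but in only 13.6% of members. Of 8 fibrillar collagens, 4 were higher and 0 lower, among them Col1a1 at 6007 CPM in members and 2189 CPM in other kept cells. It was 5 of 8 in main-cluster members and 2 of 8 in members elsewhere, Col2a1 and Col11a1 and not Col1a1. The whole list summed to 25789 CPM in main-cluster members, 9587 CPM in members elsewhere and 8474 CPM in other kept cells. The hyaluronan list had 4 of 6 higher without Ptx3, a gene of the rule, with the synthase Has1 at 374 CPM in members and 104 CPM in other kept cells. The myofibroblast list, of genes used to mark activated contractile fibroblasts, was split, with 5 of 17 higher and 3 lower. Cthrc1, a secreted collagen triple helix protein, was 20.3-fold higher (18.3 to 22.5), and Postn, a matricellular protein, 5.18-fold (4.77 to 5.61). Inhba, Nkd2 and Tnc were lower, with log2 ratios of -1.59, -1.58 and -1.56. In main-cluster members Acta2 and Tagln were also at least 2-fold lower. The WNT list, without the rule's own Sfrp4 and Sfrp2, had 3 of 14 higher, Wisp2, Rspo1 and Rspo3, and 4 lower. The WNT antagonists Frzb and Dkk2 were lower, with log2 ratios of -1.11 and -1.27. Among IGF genes, Igf1 stood at 675 CPM in members and 62.1 CPM in other kept cells, 10.9-fold higher (10.2 to 11.5). Of 21 BMP and TGF-beta genes, 3 were higher and 3 lower, with the BMP antagonist Chrdl1 92.6-fold higher (55.9 to 159) at 28.7 CPM, and the activin antagonist Fst 6.96-fold (6.15 to 7.86). Igfbp2 was the 1 IGF gene at least 2-fold lower in members, at 14.1 CPM in members and 34.0 CPM in other kept cells. In main-cluster members Igfbp3 and Igfbp7 were also at least 2-fold lower. Without the rule's Igfbp6, it was 2 of 8 higher and 3 lower there. The whole IGF list summed to 13478 CPM in members, 11957 CPM in main-cluster members and 19796 CPM in other kept cells, so its total was lower in members.

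Other genes that led the ratios were Nov, a CCN family protein, 82.7-fold higher (64.7 to 106), Cilp, a cartilage matrix protein that binds TGF-beta, 87.3-fold (66.1 to 116), and Itgbl1, an integrin beta-like protein, 32.5-fold (27.3 to 38.7). Apod, a lipocalin of resting fibroblasts, was 262-fold higher (229 to 300), but 1 cell held 74.9% of its counts, and the log2 ratio of 6.75 became 4.79 without it. The 10 lowest ratios were smaller in size. Sept4, a septin, stood at 68.5 CPM in members and 295 CPM in other kept cells, 4.31-fold lower (3.65 to 5.12). Prex2, a regulator of Rac, was 4.97-fold lower (3.41 to 7.54), and Serpine2, a protease inhibitor, stood at 678 and 2451 CPM. Alx1, a homeobox factor, stood at 110 and 426 CPM, with 44.7 CPM in main-cluster members and 252 CPM in members elsewhere. Mmp11, Cck, Cpm, Gdpd3, Ptn and Clca3a1 completed the set, with log2 ratios between -1.82 and -1.76. All 10 were lower in main-cluster members than in other kept cells.

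Within the main cluster, members with and without Ptx3 differed in many other genes, in subsets and genes chosen after their values were seen. There were 64 with a Ptx3 UMI, at a median of 9845.5 UMIs, and 82 without, at 8377.5 UMIs. Hp stood at 638 CPM in cells with Ptx3 and 31.3 CPM in cells without, and Tnfaip6 at 713 and 45.0 CPM. Sfrp2 stood at 728 CPM in cells with Ptx3 and 106 CPM in cells without, Cxcl13 at 307 and 12.3 CPM, Ccl9 at 372 and 17.7 CPM, and Ugdh, which makes the precursor of hyaluronan, at 759 and 125 CPM. Fmod, which encodes fibromodulin, ran the other way, at 7.39 CPM in cells with Ptx3 and 267 CPM in cells without, as did Itgbl1 at 16.2 and 315 CPM. Fmo2, a monooxygenase, stood at 5.91 and 113 CPM, Rspo1 at 11.8 and 87.2 CPM, and Sfrp4 at 758 and 1948 CPM. Mgp, an inhibitor of calcification, stood at 5573 CPM in cells with Ptx3 and 16951 CPM in cells without. The split used a gene of the rule, and it does not part Ptx3 from Sfrp4, which was found in 71.2% of members with Ptx3 and 67.0% of all members. Both shares are over all 206 members, while the split is within the main cluster, so they do not compare its sides. Over all members, the log level of Ptx3 had a Pearson r of 0.41 with Sfrp2 and 0.36 with C3, but of -0.03 with Sfrp4 and -0.08 with Chil1. These are over 206 cells that were chosen by the sum of the same genes.

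A split by Chil1 gave other genes. The 33 main-cluster members with a Chil1 UMI were deeper, at a median of 11304 UMIs, than the 113 without, at 8454 UMIs. Lcn2, a neutrophil gelatinase-associated lipocalin, stood at 216 CPM in cells with Chil1 and 29.4 CPM in cells without. Cfb stood at 414 and 106 CPM, Epyc at 452 and 119 CPM, Cilp at 240 and 73.1 CPM, and Igfbp6 at 1783 and 869 CPM. Cxcl1 was lower, at 522 CPM in cells with Chil1 and 1795 CPM in cells without, and so was Ccl11, at 42.3 and 393 CPM. Both Ptx3 and Chil1 were found in 14 members, which were 19.2% of the cells with Ptx3 and 29.8% of those with Chil1.

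**Figure D5:**
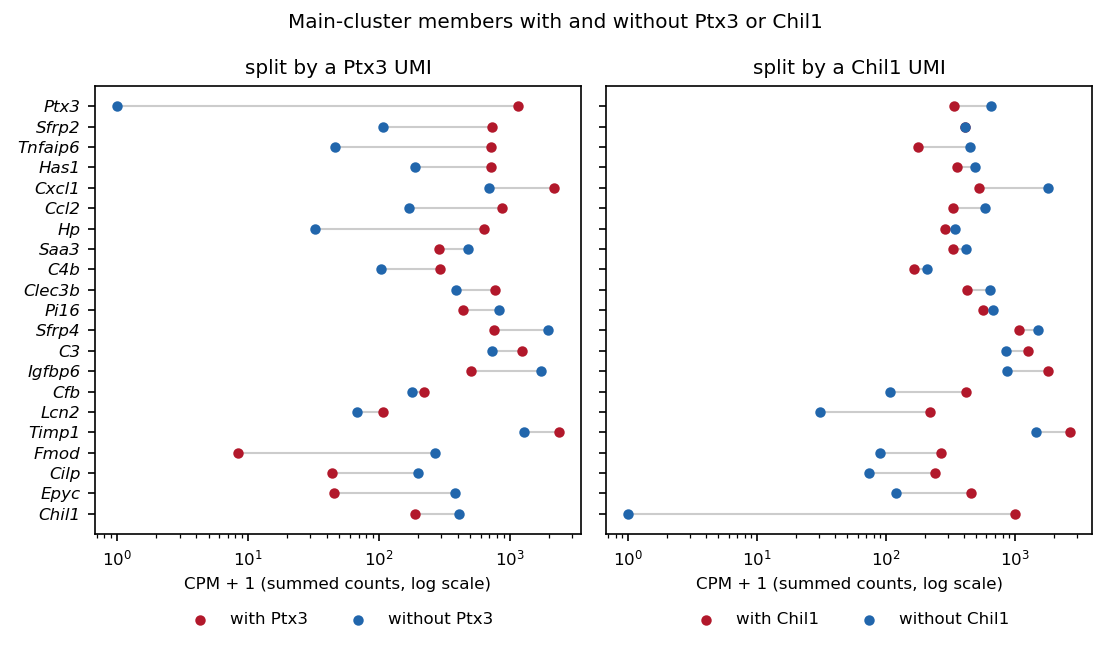
CPM plus 1 (summed counts, log scale) of 21 genes in main-cluster members with (red) and without (blue) a UMI of Ptx3 (left) or of Chil1 (right). Tnfaip6 and Hp stand apart on the left, at 713 against 45.0 CPM and 638 against 31.3 CPM, and Lcn2 and Cfb on the right; the Ptx3 and Chil1 points of their own panels follow from the split.

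The main cluster also held 52 kept cells that were not members. Meg3 stood at 1577 CPM in main-cluster members and 1036 CPM in these non-members, Lum at 1854 and 1305 CPM, Pi16 at 643 and 683 CPM, and Itgbl1 at 172 and 170 CPM. These levels were within 2-fold of each other, but Clec3b was not, at 571 CPM in main-cluster members and 46.0 CPM in non-members. Tnfaip6 stood at 366 CPM in main-cluster members and 17.7 CPM in non-members, and Hp at 323 and 39.0 CPM. These genes were chosen after their values were seen, and the 2 groups differ by the score itself. Ptn, a heparin-binding growth factor, ran the other way, at 73.0 CPM in main-cluster members and 756 CPM in non-members.

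The library held cells with Xist and cells with Y-linked transcripts, in other shares among members than among other kept cells. Xist without a Y-linked UMI was found in 29.1% of members and 57.0% of other kept cells, and Y-linked UMIs without Xist in 27.2% and 17.6%. Both were found in 20.4% of members and 13.9% of other kept cells. With the 2.5% rule applied among cells with a Y-linked UMI and no Xist, 526 genes passed 2-fold upwards and 845 downwards in 37 members. Among cells with Xist and no Y-linked UMI, 252 were higher and 49 lower in 116 members. The part of sex in the values above was not tested further.

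The same cutoff applied to the library labelled UUO took 280 of its 635 kept cells, 44.1% (40.2 to 48.1). In the library labelled sham it took 206 of 8215, 2.51%, a share that the rule fixed in advance. Of the score genes, 25 endothelial barcodes labelled UUO, with a median of 4969 UMIs, had Sfrp4 in 60%, C3 in 36%, Igfbp6 in 32%, Sfrp2 in 16%, Ccl7 in 12%, Ptx3 in 4% and Chil1 in 0, and 4 of the 25 passed the cutoff, against 0 of 88 labelled sham. Free RNA, doublets and expression cannot be told apart in the share past the cutoff. Chil1 was nearly missing, in 3 of the 280 cells labelled UUO (1.07%) and 47 of the 206 members labelled sham. Within the library labelled UUO, cells past the cutoff were compared with the other 355 kept cells. There, 305 of 9783 genes were at least 2-fold higher (3.12%) and 452 lower (4.62%), and 168 genes were higher in both libraries, 45.4% of the 370 and 55.1% of the 305. The same score made both comparisons, and 6 of its own genes are among the 168. The overlap therefore describes cells chosen alike and is not a check of 1 library by the other. Clec3b stood at 2774 and 357 CPM, Tnfaip6 at 213 and 31.0 CPM, Scara5 at 180 and 29.6 CPM and Meg3 at 880 and 137 CPM in UUO cells past the cutoff and other kept UUO cells. Saa3 did not share this, at 22.5 and 24.0 CPM, nor did Lcn2, at 8.37 and 8.98 CPM. Between the UUO cells past the cutoff and the members labelled sham, 1051 of 9410 genes were at least 2-fold higher (11.2%) and 448 lower (4.76%). Clec3b stood at 2774 CPM in those UUO cells and 394 CPM in sham members, Saa3 at 22.5 and 271 CPM, Timp1 at 71.8 and 1884 CPM, and Cthrc1 at 6.17 and 295 CPM. Clec3b also had a UMI in 40% of the 25 endothelial barcodes labelled UUO and 0 of the 88 labelled sham. The libraries shared 16 barcodes, 7 of them among kept cells and none among sham members.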

How the data were processed

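Single kidney cells were profiled by droplet-based 3′ sequencing (10x, version 2) in 1 library labelled sham and 1 labelled UUO, with 85359332 and 6023072 UMIs in 10812 and 1291 barcodes. Values are expected counts (estimated UMI counts of each gene in each barcode), as the authors deposited them, of which 92.3% of those above 0 were whole numbers in the sham library and 91.2% in the UUO library, within 1e-06. Alevin and Salmon 0.13.1 are named, with the mm10 build, per the submitters' processing notes, and the selection of barcodes by the authors is not given in the sources used. The expected counts were summed over the cells of a set, scaled to CPM and compared as log2 ratios after 5 CPM was added, over genes at 10 CPM or more in either set. Ratio intervals are exact binomial ones on the summed counts rounded to whole numbers, and cover counting error only. There were no tests, since each group is 1 library and cells are not replicates. Cells were clustered without the 7 score genes but with the filter genes allowed (2000 variable genes, 30 components, 20 neighbours, Leiden resolution 1). Doublets were scored with simulated doublets but not removed, and cells of the highest scores were left out as an alternative. Scripts ran in Python 3.11.15 with numpy 2.4.6, scipy 1.17.1, pandas 2.3.3, scikit-learn 1.9.0, python-igraph 0.11.9, leidenalg 0.10.2 and matplotlib 3.10.9, and were tested on simulated data. The members and lists were chosen with earlier results of these data known. Named genes are those of the rule, the top 15 and bottom 10 by log2 ratio (from 50 CPM and 50 counts upwards in the larger of the sets), up to 4 of each list (the 2 highest and 2 lowest) and the 5 that correlate most with the score. Mitochondrial, ribosomal, score and other-cell-type genes are left out of the highest and lowest ratios. Other genes, and the splits by cluster, Ptx3 and Chil1, were chosen after their values were seen. The result of 1 gene of the complement list is not reported here.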

Additional observations from a re-analysis of the deposited data

Results flagged for a closer look

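Among 151 named genes, 5 had opposite signs in the library labelled UUO and the library labelled sham for the log2 ratio of cells past the cutoff over other kept cells, counting only genes at least 2-fold different in 1 library whose counting intervals lay on opposite sides of equal levels. The differences were not tested. Sparcl1, a matricellular protein, had 0.62 in the library labelled UUO and -1.05 in the library labelled sham. Igfbp2, an IGF-binding protein, had 1.36 labelled UUO and -1.03 labelled sham. Kcnj8, a potassium channel subunit of pericytes, had -1.50 labelled UUO and 0.59 labelled sham. Cdh16, a cadherin of kidney tubules, had -1.17 labelled UUO and 0.87 labelled sham. Adamts5, a protease of matrix proteoglycans, had -0.48 labelled UUO and 1.48 labelled sham. Over the settings given below, the sham ratio ran from -0.51 to 1.25 for Cdh16 and from -0.25 to 0.89 for Kcnj8. The sham sign of these genes therefore depended on the setting, while Sparcl1, Igfbp2 and Adamts5 kept theirs. Igfbp2 was rare in thinned cells labelled UUO, in 2 of 280 past the cutoff and 2 of 355 other kept cells.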

How the results depend on the processing

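No paired analysis was possible because each group is 1 library. The count of genes at least 2-fold higher in members, 370, was 226 with the top 5% as members, 202 with 20 CPM added and 193 among genes at 50 CPM or more. The count at least 2-fold lower, 241, was 741 with the top 1%, 22 with the top 5%, 49 among cells with Xist and no Y-linked UMI, 845 among cells with Y-linked UMIs and no Xist, 410 and 79 with 1 and 20 CPM added, 120 among genes at 50 CPM or more, and 526 with main-cluster members. The share of UUO cells past the cutoff, 44.1%, was 11.7% at the top 1%, 62.0% at the top 5%, 32.1% with the summed-level score, 61.2% among Xist cells and 29.9% among Y-linked cells. The median log2 ratio of left-out markers, 4.53, was 4.91 at the top 1%, 4.06 at the top 5%, 4.66 with the UMI minimum doubled, 4.67 with at most 5% mitochondrial, 4.91 with none of the exclusion genes, 3.96 in thinned cells, 3.88 among Xist cells, and 5.11 and 3.83 with 1 and 20 CPM added. Some genes under 2-fold in the main values also changed sign and are not listed, such as Tyrobp, from 0.78 to -2.04 at its lowest. Among named genes past 2-fold in the main values, log2 ratios that reversed were C1qa -1.39, H2-Aa -1.17 and Cd74 -1.66 at the top 1%. With none of the exclusion genes they were Igkc -0.30, Igha -0.19 and Cd74 -0.31, and without the highest doublet scores Igkc -0.17 and Igha -0.18. Hbb-bs was 0.046 among Xist cells. Among Y-linked cells Pax8 was -0.45, C1qa -1.66, Hbb-bs 0.49, H2-Aa -1.19 and Cd74 -1.76. Without the top cell, Igkc was -0.19 and Igha -0.18. With main-cluster members, C1qa was -1.37, Jchain -0.17, Igkc -0.45, Birc5 -0.13, Igha -0.18, H2-Aa -1.36 and Cd74 -1.79. The cause was not tested. The settings without the top cell and with main-cluster members were chosen after seeing the data. Of 97 named genes past 2-fold, 46 stayed past it in every setting. Depth limits rare transcripts in the 206 members.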
